A study of Mus musculus with 12 samples.

Results

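The regions described here are stretches of open chromatin that had peaks in the F4/80-high liver macrophages of every kind in the study and in none of its other myeloid cells. They were selected on the presence of peaks: peaks of the 6 deposited ATAC-seq lists that overlapped by 1 bp or more were merged, and a merged region was kept where it held a peak of all 3 F4/80-high lists and of no other list. Of 100354 merged regions, 1896 (1.89%) met this rule, and all 1896 are counted below. Their presence in 3 lists and absence from 3 is therefore the choice itself and not a result. In ATAC-seq a transposase cuts and tags accessible DNA, so a peak marks a place where chromatin is open.

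All cells came from C57BL/6J mice, and each of the 6 groups had 2 libraries, 12 in all. The F4/80-high groups were Tim4-positive Kupffer cells of mice on a control diet (KC-H, 63501 peaks), Tim4-positive Kupffer cells of mice on a NASH diet (KC-N, 50550 peaks), and Tim4-negative Kupffer cells of the NASH diet (KN-RM, 34293 peaks). The NASH diet models nonalcoholic steatohepatitis. The other groups, all of the NASH diet, were recruited CD11b-high liver macrophages with high Ly6C (Ly6CHi-RM, 61492 peaks) or low Ly6C (Ly6CLo-RM, 54621 peaks) and monocytes sorted from blood for high Ly6C (Blood-Ly6CHi-NASH, 69616 peaks). The KN-RM label shares its RM with the recruited liver groups, and whether its cells were resident or recruited was not tested. There was no blood or CD11b-high group of the control diet, so diet is not matched between the F4/80-high and the other lists. The cells were defined by surface sorting, and the blood cells did not pass through liver digestion. Each group had 1 list over both libraries, so there is no replicate error between lists, no test and no p-value. The 95% Wilson intervals given below cover counting error only, and they treat neighbouring regions of a gene as independent. For library depth, the sources used here give no value.

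The sort markers were checked against the peaks at their genes. Adgre1, the gene of F4/80, had 8, 4 and 5 peaks in KC-H, KC-N and KN-RM and 6, 5 and 6 in Ly6CHi-RM, Ly6CLo-RM and blood, so peaks at this gene did not set the F4/80-high lists apart. Timd4, the gene of Tim4, had 17 peaks in KC-H, 1 in KC-N and 0 for KN-RM, and no region of all 3 lists. Clec4f, a Kupffer cell lectin gene, had 18, 7 and 5 peaks in the F4/80-high lists against 1, 0 and 1 in the others. Itgam, which encodes CD11b, had 7, 5 and 5 peaks against 10, 9 and 10. Vsig4, a complement receptor gene of Kupffer cells, had 5, 2 and 1 peaks against 4, 1 and 6, while the gene of the scavenger receptor Marco had 15, 7 and 0 against 1, 1 and 1. F4/80-high is thus the name of the sort, and peaks of all 3 F4/80-high lists at Clec4f are part of what the rule selects on.

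Kupffer cells are the resident macrophages of the liver; they line its sinusoids and take up dead cells, lipoproteins, aged red cells and bacteria from the blood. Their identity is known to depend on the lipid-sensing nuclear receptor LXR-alpha, on signals of the TGF-beta and Notch families from neighbouring cells, and on MAF family factors, which act together with the general macrophage factor PU.1. Sites used by such factors lie mostly at enhancers, which can be far from the genes they act on, while promoters tend to be open in many cell types.

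The member regions at promoters can be shown as sequence. The stretches below are the bases upstream of the start site that a member region covered at 6 genes of the lists used here, read from RefSeq promoter windows (GRCm38.p6). They are given 5′ to 3′ on the strand of the gene and end at the base before the start site. Capitals mark matches to short motifs: CCGCCC (the other strand of GGGCGG, known from KLF and SP factors) in Mertk, TGCTGA and its other strand TCAGCA (MAF recognition element cores) in Cd5l, and GTGGGCG (EGR) overlapping GGGCGG in Axl.
Mertk: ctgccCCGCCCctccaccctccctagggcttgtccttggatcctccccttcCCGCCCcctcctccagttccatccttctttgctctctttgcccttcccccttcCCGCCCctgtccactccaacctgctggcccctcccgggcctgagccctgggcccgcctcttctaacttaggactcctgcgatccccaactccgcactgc
Cd5l: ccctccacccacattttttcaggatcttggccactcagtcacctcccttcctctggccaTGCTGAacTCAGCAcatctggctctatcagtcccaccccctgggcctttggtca
Axl: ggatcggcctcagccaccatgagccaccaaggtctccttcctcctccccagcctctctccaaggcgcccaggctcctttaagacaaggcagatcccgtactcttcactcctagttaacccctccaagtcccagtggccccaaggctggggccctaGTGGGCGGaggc
Clec1b: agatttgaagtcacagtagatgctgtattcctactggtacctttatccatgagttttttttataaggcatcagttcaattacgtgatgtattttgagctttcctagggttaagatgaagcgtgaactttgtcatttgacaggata
Apoe: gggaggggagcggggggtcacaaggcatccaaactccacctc
Srebf1: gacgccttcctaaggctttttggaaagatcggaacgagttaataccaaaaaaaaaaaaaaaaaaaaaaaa

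Each stretch has its place on the chromosome. The Mertk stretch is chr2:128698712-128698914 on the plus strand, the Cd5l stretch is chr3:87357768-87357880 on the plus strand, and the Clec1b stretch is chr6:129397152-129397296 on the plus strand. On the minus strand lie Axl (chr7:25788734-25788900), Apoe (chr7:19699189-19699230) and Srebf1 (chr11:60222582-60222651). In the Cd5l stretch the MAF core matches began 54 and 46 bases before the start site. The Mertk stretch held GGGCGG on its other strand at 198, 152 and 99 bases before the start site. GC content ranged from 30.0% at Srebf1 to 66.7% at Apoe. A match of letters describes the sequence and does not show that a factor was bound.

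Genes of Kupffer cell identity held member regions at 5 of 20 genes: Cd5l (6), Clec4f (5), Id3 (3), Clec1b (1) and Hmox1 (1). As background, 1258 of 21900 protein-coding genes (5.74%) had a member region, with each region counted at the gene around its centre or, outside genes, at the closest gene up to 100 kb away. Of the 237 merged regions at the identity genes, 16 were members (6.75%, 4.20% to 10.7%), against 1.84% (1.76% to 1.93%) of the regions of all genes. The mirror set, made of regions that the blood, Ly6CHi-RM and Ly6CLo-RM lists shared and the F4/80-high lists lacked, was 5.72% of all merged regions and held 0 of these 237 (up to 1.60%). Identity genes were listed with earlier results of these data known, so the count describes the list and is no independent support. With only the better-scored 50% of each F4/80-high list counted as present, 2 of the 20 identity genes held a member, against 266 of 21900 genes (1.21%).

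Cd5l encodes a secreted scavenger protein of tissue macrophages. Its promoter member, chr3:87357768-87358014, had normalized tag counts, the authors' own values for the height of a peak, of 57.2, 55.3 and 24.6 (KC-H, KC-N and KN-RM, the order of every set of 3 tag counts below). It stood at a mean score percentile of 78.2 over the 3 lists, where a percentile ranks a peak within its own list, and the nearest peak centre of another list was 11.48 kb away. The remaining Cd5l members lay 27.91, 26.94, 20.63 and 1.08 kb upstream of the start site and 0.94 kb inside the gene. Their tag counts were 11.7 to 24.6 in KC-H, 15.4 to 21.6 in KC-N and 11.5 to 17.3 for KN-RM, lower than the promoter member in each list. In all, Cd5l had 24, 13 and 10 peaks in KC-H, KC-N and KN-RM and 4, 1 and 5 in Ly6CHi-RM, Ly6CLo-RM and blood.

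Clec4f had no member within its own bounds. Its 5 members lay 6.69 to 31.10 kb beyond the 3′ end, 18.26 to 42.67 kb from the start site, and each was over 1000 bp from any peak centre of the other lists. These 5 were also the only KN-RM peaks of the gene, so every KN-RM peak assigned to Clec4f was in a member region. The strongest, chr6:83631892-83632135, had tag counts of 59.9, 54.3 and 27.7 (KC-H, KC-N and KN-RM). It ranked at a mean percentile of 84.2, while the other 4 ranked between 34.6 and 58.4. At the gene itself only the KC-H list had peaks, as the map of the 4 loci shows.

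**Figure D1:**
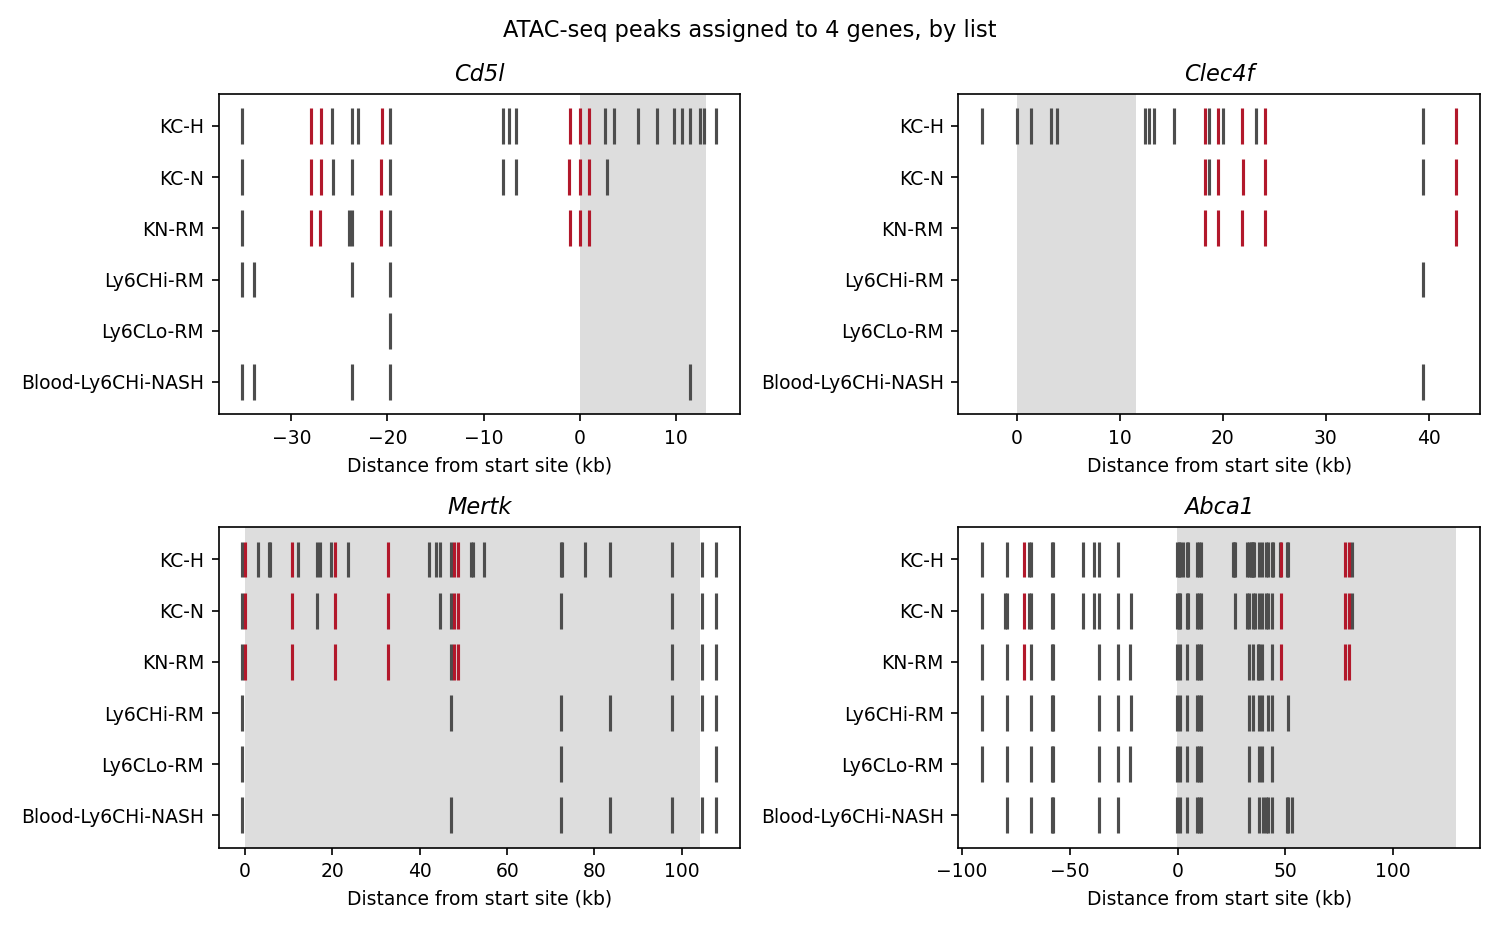
Peaks assigned to Cd5l, Clec4f, Mertk and Abca1 in the 6 lists, as vertical bars at their distance from the start site (kb, along the direction of transcription); grey shading is the gene, red bars are peaks in member regions and dark bars all other peaks. Members stand at the Cd5l and Mertk promoters, downstream of Clec4f, and within and upstream of Abca1; by the rule they are absent from the lower 3 rows.

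Id3, which encodes an inhibitor of DNA-binding factors downstream of BMP signals, had 3 members at 14.29 kb upstream and 1.64 and 3.09 kb beyond the gene, with tag counts of 13.5, 16.9 and 27.1 in KC-H. Their percentiles in KC-H were 33.8, 52.6 and 69.2, and their means over the 3 lists were 29.5, 39.5 and 33.1. The Clec1b member covered its promoter and had tag counts of 20.3, 24.0 and 12.3 in KC-H, KC-N and KN-RM. The Hmox1 member, near the gene of a heme-degrading enzyme, was 8.54 kb outside the gene with 20.9, 25.5 and 18.8. No member was assigned to Timd4, Marco, Vsig4, Spic or Nr1h3. For Timd4 and Marco this follows from KN-RM, which had 0 peaks at both. Nr1h3, the gene of LXR-alpha, had 5, 3 and 2 peaks in the F4/80-high lists and 2 in each of the other 3.

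Receptors for the uptake of dead cells held members at 6 of 16 genes, with 20 of 238 regions (8.40%, 5.51% to 12.6%) against 3 (1.26%, 0.430% to 3.64%) of the mirror set. Over all genes, 5.74% had a member, and the shares of regions were 1.84% for members and 5.67% for the mirror set. Mertk and Stab2 had 6 each, Itgb5 had 5, and Axl, Lrp1 and Itgav had 1 each. Mertk and Axl encode receptor tyrosine kinases of the TAM family, which bind dead cells through bridging proteins. The Mertk promoter member, chr2:128698712-128698954, had tag counts of 50.1, 36.5 and 38.1 (KC-H, KC-N and KN-RM) and a mean percentile of 81.9. The nearest centre of another list was 0.54 kb from it, and all 6 lists, blood, Ly6CHi-RM and Ly6CLo-RM included, had a peak centred 0.62 to 0.65 kb upstream of the Mertk start site. The other 5 Mertk members lay 10.70 to 48.76 kb inside the gene, at mean percentiles of 27.2 to 65.6. The Axl member at its promoter had 26.1, 38.0 and 18.1 and was 2.03 kb from the nearest other-list centre.

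Stab2, an endocytic receptor for hyaluronan, had its 6 members far from the other lists, at 34.32 to 95.94 kb. The Ly6CHi-RM, Ly6CLo-RM and blood lists held 1 peak each at Stab2, against 19, 13 and 7 in KC-H, KC-N and KN-RM. The strongest member, chr10:86885784-86885998, had tag counts of 69.8, 65.9 and 31.5. Stab2 is also a marker of liver sinusoidal endothelium, and in the list of endothelial genes Pecam1 had 1 member with 17.8, 17.3 and 17.3. The endothelial list thus held 7 members among 58 regions (12.1%, 5.97% to 22.9%), 6 of them at Stab2, and 0 at Kdr, Tek, Gata4, Bmp2, Lyve1 and Oit3. The part of other cells in these peaks was not tested. Itgb5, the integrin subunit that pairs with the product of Itgav, had members 72.45 to 120.60 kb downstream of its start site, at mean percentiles of 38.1 to 60.9. The Itgav member had 29.8, 46.2 and 21.2.

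LXR targets and lipid handling genes held members at 10 of 18 genes and had 26 of 274 regions (9.49%, 6.56% to 13.5%), against 6 of the mirror set (2.19%, 1.01% to 4.69%). Beside these stand 5.74% of all genes with a member, and region shares of 1.84% and 5.67% over all genes. The median number of members per gene was 1 in this list and 0 in all others and over all genes. Mertk, itself an LXR target, contributed 6 of the 26. Abca1, the cholesterol export transporter, had 4. Its member of highest mean percentile, chr4:53080270-53080487, lay inside the gene 26.64 kb from any other-list centre. The tag counts there were 81.5, 86.5 and 32.3 (KC-H, KC-N and KN-RM). A second, chr4:53081972-53082189, had 61.8, 96.6 and 33.5. Both stood in the upper part of every list, at mean percentiles of 88.3 and 84.3. Of the 47 regions at Abca1, 16 were in all 6 lists.

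Scd1, which encodes a fatty acid desaturase, had 4 members within 14.81 kb of its gene, and the highest by mean percentile had 31.4, 47.1 and 23.5. Rxra, the gene of the partner receptor of LXR, had 3, the strongest with 46.7, 33.7 and 16.9. Mylip, which encodes a ubiquitin ligase, had 2, at mean percentiles of 76.7 and 12.3. Pltp, the phospholipid transfer protein gene, had 2, at 70.6 and 40.3. Abcg1, another cholesterol transporter gene, also had 2, and Apoe, Apoc1 and Srebf1 had 1 each. The members of Apoe and Srebf1 lay on their promoters with tag counts of 27.1, 35.1 and 19.2, and of 15.7, 16.3 and 18.1. They were 0.63 and 0.35 kb from a centre of another list. No member was assigned to Lpl, Scd2, Lpcat3, Nr1h2, Myo5b or Arl4c.

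Scavenger and lectin receptors held members at 7 of 17 genes, 15 of 192 regions (7.81%, 4.79% to 12.5%) against 1 of the mirror set (0.521%, 0.0920% to 2.89%). For all genes the values were 5.74% of genes, and 1.84% and 5.67% of regions. Besides Clec4f and Clec1b these were Cd36, Mrc1, Scarb1 and Scarb2 with 2 each and Msr1 with 1. Cd36, a fatty acid transporter, had a member with 16.3, 49.0 and 26.5 and another with 10.5, 28.4 and 14.6. Mrc1, the mannose receptor gene, had both members within 3.69 kb downstream of its start site. The lists of identity, uptake, lipid and scavenger genes share Mertk, Clec4f, Clec1b and other genes and are not separate observations.

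Genes of transcription factors had shares whose intervals included the 1.84% of all genes, except the early response factors, whose interval lay below it. MAF, MEF2 and MiT factors had 3 members among 325 regions (0.923%, 0.314% to 2.68%), and 16 of the mirror set. They were 1 at Maf, 52.86 kb outside the gene with 54.7, 47.1 and 17.3, and 2 at Bach2. Of the Bach2 members, 1 lay on the promoter window of Bach2os, which is not among the protein-coding genes. ETS, RUNX and C/EBP factors had 8 of 473 (1.69%, 0.859% to 3.30%), against 35 (7.40%, 5.37% to 10.1%). Of the 8, Cebpb had 3, Elf1 and Etv6 had 2 each and Ets1 had 1. Early response factors such as the FOS and JUN genes had 2 of 406 (0.493%, 0.135% to 1.78%), 1 at Fos and 1 at Fosl2, both within 1000 bp of another list's peak centre. Nuclear receptors had 9 of 297 (3.03%, 1.60% to 5.66%), namely Rxra with 3, Pparg and Thrb with 2, and Nr1d2 and Nr3c1 with 1. These counts moved with the length of the lists: with lists of equal length, early response genes with a member went from 2 to 6 of 18 and MAF, MEF2 and MiT genes from 2 to 5 of 15, while the share of all genes went from 5.74% to 8.14%.

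Among signalling genes, 4 of 18 TGF-beta and BMP genes and 4 of 12 Notch genes had a member, against 5.74% of all genes. TGF-beta and BMP genes had 7 of 251 (2.79%, 1.36% to 5.64%), of which 3 were at Id3, 2 at Tgfb1 and 1 each at Tgfbr2 and Ski. The Tgfb1 member at chr7:25703869-25704104 had tag counts of 59.6, 40.4 and 26.5 and a mean percentile of 77.4. Notch genes had 5 of 210 (2.38%, 1.02% to 5.45%), 2 at Hes1 and 1 each at Notch1, Notch4 and Maml2. Of the Hes1 members, 1 lay 56.68 kb from the gene, on the promoter window of 4632428C04Rik, which is not among the protein-coding genes. NF-kB and inflammatory genes had 5 of 241, interferon response genes 4 of 186 (3 at Irf8 and 1 at Irf1), and Trem2-type lipid-associated genes 4 of 222. Complement genes had 2 of 63 (C1qa and C1qc), iron and heme genes 2 of 162 (Hmox1 and Slc11a1), and MHC class II genes 1 of 125 (Ciita). The intervals of all these shares include the 1.84% of all genes. With lists of equal length, iron and heme genes with a member went from 2 to 8 of 15, where 8.14% of all genes had one.

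Markers of recruited macrophages and monocytes held 0 members among 122 regions (up to 3.05%) and 8 regions of the mirror set at 6 of 12 genes (6.56%, 3.36% to 12.4%). Hepatocyte, T and NK cell, B cell, neutrophil and dendritic cell genes also held 0, among 25, 28, 10, 13 and 77 regions, numbers that allow shares of up to 13.3%, 12.1%, 27.8%, 22.8% and 4.75%. Stellate cell genes held 1 (at Pdgfrb) of 23. Housekeeping genes held 1 of 128 (0.781%, 0.138% to 4.29%), outside Actb, and 11 of the mirror set (8.59%, 4.87% to 14.7%). The intervals given here include the shares of all genes, 1.84% for members and 5.67% for the mirror set, so these counts do not set the lists apart.

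**Figure D2:**
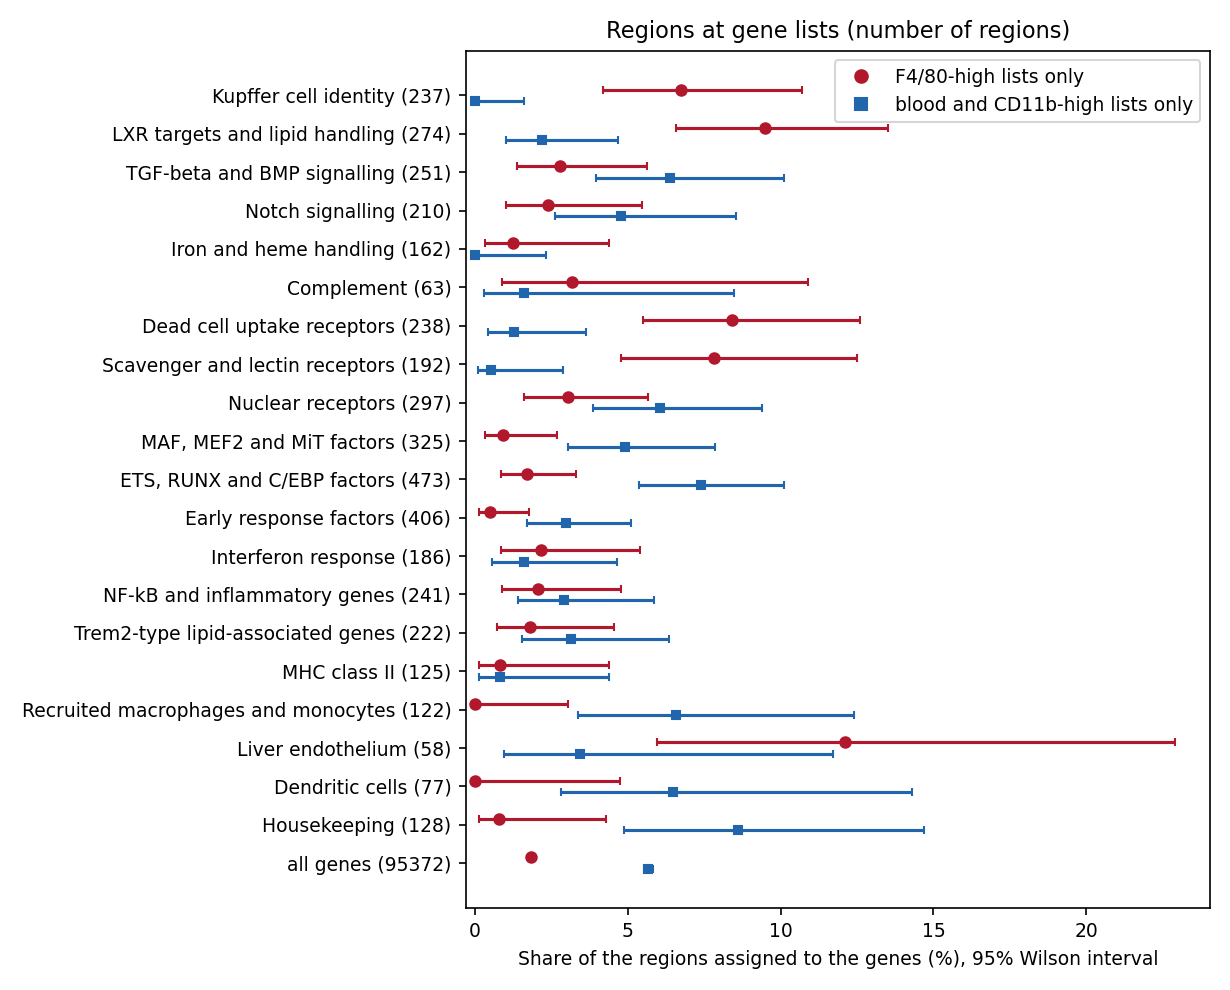
Share of the merged regions at each gene list that were members (red circles) or regions of the blood and CD11b-high lists only (blue squares), in percent with 95% Wilson intervals; the number of regions is in parentheses, and lists with under 50 regions are left out. LXR and lipid, dead cell uptake, scavenger and identity genes show members at 6.75% to 9.49%, above the 1.84% of all genes, and the blue squares of these lists lie at 0% to 2.19%, below the 5.67% of all genes. Liver endothelium genes show the highest share of members, 12.1% (5.97% to 22.9%) of 58 regions, with 6 of the 7 members at Stab2.

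The genes with the most members were mostly outside these lists. Sfi1 had 15, Frmd4a, Itga9 and Sema6d had 9 each, Pkp4 and Wdfy3 had 7, and Capzb, Cd5l, Dnmt3a, Itsn1, Mertk, Prex1, Ptprm, Rmi1 and Stab2 had 6. Among all genes 958 had 1 member, 200 had 2, 100 had 3 or more and 24 had 5 or more. A gene with more regions has more chances to hold a member: 7.99% of the 15754 genes with any region had one. Of the 1258 genes, 362 (28.8%) also held a region of the mirror set, and these 362 were 10.1% of the 3567 genes with such a region. Some genes thus held both kinds of region.

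Itga9, which encodes an integrin subunit, had all 9 members inside the gene, 8 of them within 57.60 kb. The strongest, chr9:118666131-118666375, had tag counts of 90.1, 101.4 and 56.5 (KC-H, KC-N and KN-RM), a mean percentile of 93.1. Sema6d, a semaphorin gene, had 6 members inside and 3 beyond the gene, none within 1000 bp of another list's centre. Its member chr2:124610333-124610571 had 125.7, 122.1 and 45.0 (mean percentile 92.7), and the others ranged from 29.8 to 67.8. Frmd4a, a cell polarity scaffold gene, had 6 of its 9 members within 11.21 kb of intragenic sequence. The highest by mean percentile, chr2:4452938-4453360, had 55.9, 63.9 and 27.3. Pkp4, a junction plaque protein gene, had its highest member by mean percentile at chr2:59240083-59240330 with 93.8, 66.3 and 28.1. Ptprm, a receptor phosphatase gene, had 39, 21 and 7 peaks in KC-H, KC-N and KN-RM, and 6 of the 7 KN-RM peaks were in members. Dnmt3a, a DNA methyltransferase gene, had a member with 44.6, 88.0 and 43.8 at a mean percentile of 89.1. That member also overlapped the promoter window of Gm31623, which is not among the protein-coding genes.

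Sfi1 stood apart from the others. Of its 15 members, 14 lay within 14.44 kb, and only 4 of the 15 were over 1000 bp from a peak centre of another list. The gene had 52, 34 and 43 peaks in KC-H, KC-N and KN-RM and 19, 23 and 11 in Ly6CHi-RM, Ly6CLo-RM and blood. A further 29 members were on the unplaced sequence JH584304, where 29 of 131 regions were members (22.1%). No filter for repeats or poorly mappable sequence was applied, and the part of such sequence in these counts was not tested. Without Sfi1 and JH584304, 1852 members remained at 1257 genes.

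Ranked by mean score percentile, the member with the highest rank was chr17:39843612-39843819, with tag counts of 345.2, 156.2 and 173.4 and no protein-coding gene within 100 kb. A centre of another list lay 240 bp from it. Whether this member lies in repeated sequence or in a non-coding gene was not tested. Next came 1700003F12Rik (123.9, 110.6 and 48.5), the promoter of Tnfaip2, a TNF-induced gene (104.2, 88.9 and 56.1), and Rcsd1 (115.3, 103.4 and 44.6), each with another list's centre 224 to 901 bp away. Among members over 1 kb from gene ends and from other lists, the highest were Csrp1 (mean percentile 93.6), Itga9, Sema6d, Poc1b (88.5, 80.8 and 45.8), Pcolce2 (88.2, 92.8 and 48.5) and Tmem63a (105.1, 90.9 and 31.9). The Pcolce2 member was 67.56 kb from any other-list centre. The lowest ranks were at Myo3a, Xpo6, Scn8a and chr4:80002490-80002804, all at a mean percentile of 0.0. The Myo3a member nonetheless had tag counts of 27.1, 67.8 and 33.1, above the list medians of 17.5, 26.9 and 19.6, so score and tag count did not always rank a region alike.

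Nearly all peaks of the lists were 200 bp wide, so the widths of merged regions largely reflect that fixed size. Members ranged from 200 to 567 bp with a median of 226 bp. The median was 218 bp for the mirror set and for all merged regions. It was 216 bp for regions of both Tim4-positive lists only and 236 bp for regions of all 6 lists. Of 1896 members, 1884 held 1 peak of each list, and together the members covered 447 kb. Another member lay within 10 kb of 518 of them (27.3%). Joined over gaps of up to 20 kb they formed 1481 groups, of which 237 held 2 or more members and 31 held 4 or more. Groups outside the genes named so far included 5 members over 13.55 kb at Cd38, an NAD-consuming surface enzyme gene, and 4 over 16.95 kb at Xdh, the xanthine dehydrogenase gene.

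Most members were distal. Of the 1896 members, 152 lay 1 kb or less from either end of a coding gene (8.02%, 6.88% to 9.33%), close to the mirror set at 8.76% (8.06% to 9.52%). The share was 11.0% (9.99% to 12.0%) for regions of both Tim4-positive lists only and 40.4% (39.8% to 41.0%) for regions of all 6 lists, while 21.9% of all merged regions lay there. Members lay inside genes at 60.9% (58.6% to 63.0%), near the Tim4-positive set at 60.7% (59.1% to 62.3%) and above the mirror set at 54.2% (52.9% to 55.5%) and all merged regions at 56.8% (56.5% to 57.1%). Their median distance to a gene end was 16.10 kb, against 12.91 kb in the mirror set, 15.66 kb in the Tim4-positive set and 2.62 kb in regions of all 6 lists. No protein-coding gene lay within 100 kb of 138 members (7.28%), against 7.73% of the Tim4-positive set, 5.80% of the mirror set and 4.96% of all merged regions.

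**Figure D3:**
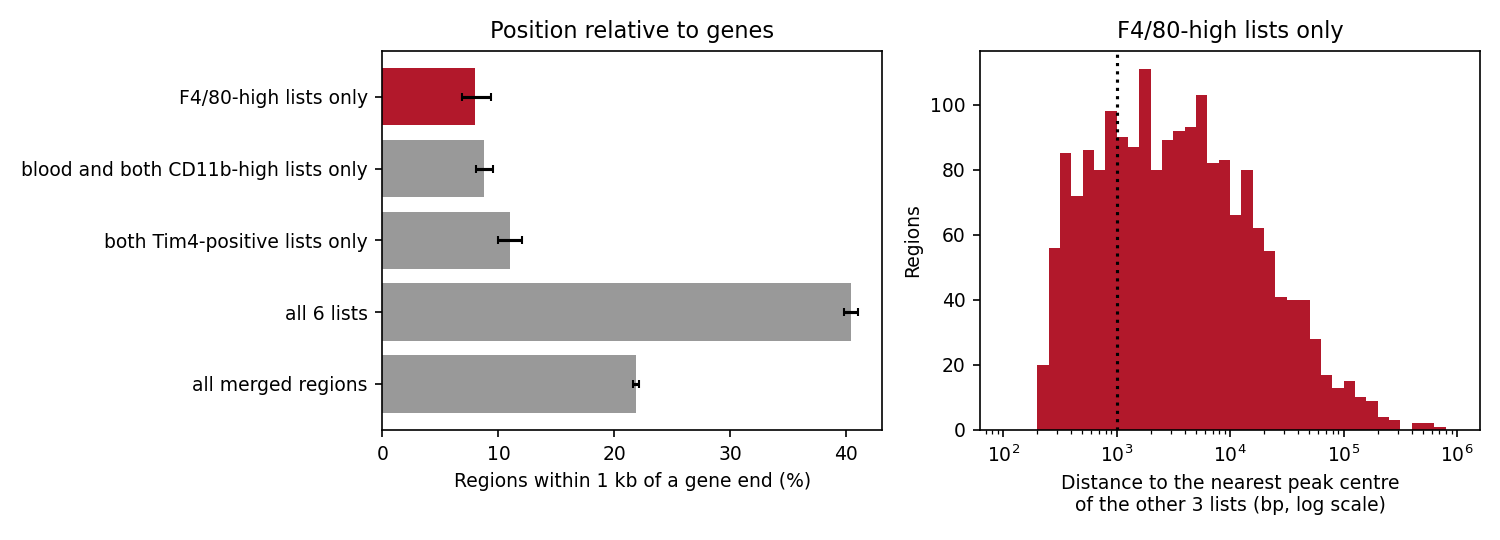
Left, share of regions 1 kb or less from a gene end (%) in 5 sets of merged regions, with 95% Wilson intervals; members (red, 8.02%) and the mirror set (8.76%) are low and regions of all 6 lists high (40.4%). Right, number of members by distance from the nearest peak centre of the other 3 lists (bp, log scale), with a dotted line at 1000 bp; 1398 of 1896 lie to the right of it.

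Most members had no called peak of the other lists nearby, and the rule itself removes overlapping peaks. Of the 1896 members, 1398 (73.7%, 71.7% to 75.7%) had no peak centre of the other 3 lists within 1000 bp. The median distance to the nearest such centre was 3.11 kb (quartiles 0.96 and 10.47 kb), and 106 members were over 50 kb away. In contrast 162 members had a centre within 400 bp. These distances were not compared with those of other sets of regions. At the edge of the rule, 4, 19 and 58 members ended within 10, 50 and 100 bp of a peak of another list, and 3, 11 and 36 regions of all 3 F4/80-high lists were kept out by overlaps of at most that size. All 3 F4/80-high lists held 30677 regions, of which the members were 6.18% and regions of all 6 lists 82.9%. Just outside the rule were 350 regions with a blood peak added, 459 with a Ly6CLo-RM peak and 271 with a Ly6CHi-RM peak.

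Within their own lists members were of middle rank in KC-H and KC-N and of low rank in KN-RM. The median score percentile was 60.5 for KC-H (quartiles 45.0 and 74.4), 51.2 for KC-N (34.4 and 66.7) and 27.9 for KN-RM (12.5 and 46.7). Regions of all 6 lists stood at 77.7, 72.6 and 59.8 in the same lists. The median tag count of members was 22.4, 27.4 and 14.6, and that of regions of all 6 lists was 35.7, 41.8 and 22.7, so members were 0.63, 0.66 and 0.64 times as high. The lists differ in length, and the KN-RM list is the shortest, so the percentiles do not show a change between the groups. The regions just outside the rule ranked near the members, with medians of 57.8 in KC-H for each of the sets with 1 further list. The medians of these sets ran from 45.7 to 56.1 in KC-N and from 24.1 to 31.5 in KN-RM.

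**Figure D4:**
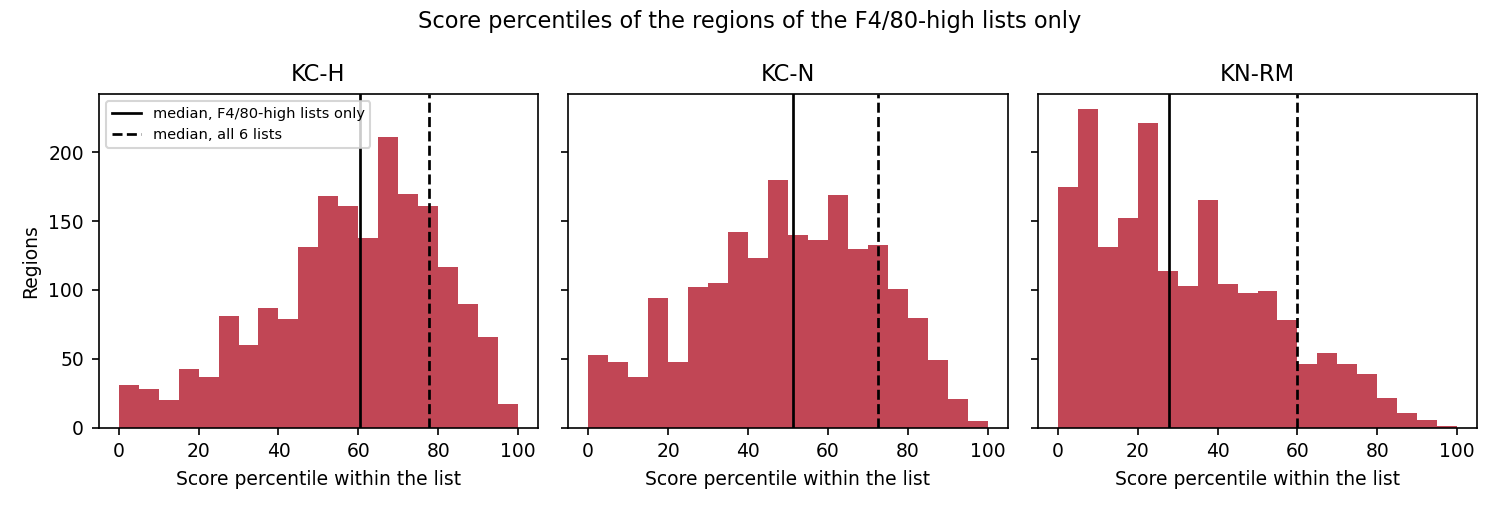
Number of members by score percentile within the KC-H, KC-N and KN-RM lists (bins of 5 points); the solid line is the median of the members and the dashed line that of regions of all 6 lists. The members' medians are 60.5, 51.2 and 27.9, left of the dashed lines at 77.7, 72.6 and 59.8.

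The top 10% of each list held 83 members for KC-H (4.38%), 26 for KC-N (1.37%) and 7 for KN-RM (0.369%). Of regions of all 6 lists, 23.7%, 19.5% and 13.2% were there. A total of 318 members (16.8%) were in the better-scored part of all 3 lists, above the 50% mark, and 440 (23.2%) were in that part of none. Counting only that part of the F4/80-high lists as present, against the whole other lists, with tied scores split by tag count and peaks merged anew, left 324 member regions, and taking it for every list left 876. The lowest tag count in any of the other 3 lists was 17.2. In the authors' scaling, 560 members (29.5%) were below this by their KC-H peak, 183 (9.65%) by their KC-N peak and 1257 (66.3%) by their KN-RM peak. Of regions of all 6 lists, 11.2%, 2.75% and 29.7% were below it in the same lists. How the scaling and the depth of the lists bear on absence from the other lists was not tested. Across members, the Spearman correlation of score was 0.61 between KC-H and KC-N, 0.56 between KC-N and KN-RM and 0.50 between KC-H and KN-RM (n = 1896 regions, which are not independent replicates). Across regions of all 6 lists it was 0.87, 0.87 and 0.84 (n = 25441), over a wider range of scores.

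Members overlapped the window from 250 bases before to 50 after a RefSeq start site in 60 cases (3.16%, 2.47% to 4.05%), at 60 symbols of which 40 were protein-coding. The mirror set had 3.64%, the Tim4-positive set 2.38% and regions of all 6 lists 30.0%. In order of mean percentile the first 8 coding promoters were those of 1700003F12Rik (95.5), Tnfaip2, Tsga10 (92.1), Adck1 (87.5), Mertk (81.9), Cd5l (78.2), Tbl1xr1 (72.5) and Stard13 (71.0). Lower in rank were Epor (39.0, 37.5 and 13.5), the erythropoietin receptor gene, Mpeg1 (17.8, 23.1 and 20.8), which encodes a pore-forming protein of macrophages, Il1a (17.2, 21.6 and 14.6) and Cxcl1 (12.0, 32.2 and 12.3).

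The 60 windows were searched on both strands for 31 short motifs, a search added after the lists had been read because no genome sequence was used here. TGCTGA, the MAF core seen in capitals in Cd5l, was in 33.3% of them (20 of 60, 22.7% to 45.9%). It was in 12.6% of 214 mirror windows (8.82% to 17.7%), 23.3% of 90 Tim4-positive windows (15.8% to 33.1%), 14.1% of 8199 windows of regions of all 6 lists and 19.1% of all 27025 promoters. TCACNTG, known from MiT factors, was in 23.3% (14.4% to 35.4%) against 16.6% of all promoters, and AGGTCA, the core that nuclear receptors bind, in 23.3% (14.4% to 35.4%) against 16.0%. TGANTCA (AP-1) was in 13.3% (6.91% to 24.2%) against 7.93%, and GAAANNGAA (IRF) in 13.3% against 8.57%. GAGGAAGT (PU.1) was in 6.67% (2.62% to 15.9%) against 3.28%, and in 8.88% of the mirror windows. GGGCGG was in 40.0% (28.6% to 52.6%), against 69.9% of windows of regions of all 6 lists and 35.9% of all promoters. CACCTG, an E-box, was less frequent, in 6.67% (2.62% to 15.9%) against 20.0%. The NF-kB motif was in 2 of the 60 (3.33%, 0.919% to 11.4%) against 0.355%. Of the 31 motifs, the intervals of the MAF core, this E-box and NF-kB left out the share of all promoters. Mean GC content of the windows was 55.0% for members, 58.0% for the mirror set, 62.0% for regions of all 6 lists and 53.6% for all promoters. These shares are descriptions of 60 windows, which can extend beyond the member.

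On the X chromosome there were 5 members (0.264%, 0.113% to 0.616%). The mirror set had 140 (2.44%, 2.07% to 2.87%), the Tim4-positive set 32 (0.877%, 0.622% to 1.24%) and all merged regions 1934 (1.93%). The F4/80-high lists themselves held 1.76%, 1.60% and 1.37% of their peaks on X, against 1.99%, 1.92% and 2.20% in Ly6CHi-RM, Ly6CLo-RM and blood. Regions of all 3 F4/80-high lists that 1 or more other lists also held had 445 of 28781 on X (1.55%, 1.41% to 1.70%). The share of members on X was thus below that of the lists they came from. The sex of the mice was not used here. Among autosomes the share of regions that were members ran from 1.34% on chromosome 8 to 3.06% (107 of 3501) on chromosome 16.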

How the data were processed

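ATAC-seq peaks of 6 groups of 2 libraries were used. HOMER, Bowtie2 and DESeq2 and the builds mm10 and GRCm38 are named, without roles, in the submitters' processing notes. Depth, read filters and transposase shift were not given in the sources used here. Per the labels, each group has a single list over both libraries, named IDR (irreproducible discovery rate). The deposited signal is the authors' tag count per peak after normalization, and its score is the authors' whole-number peak score; peaks were ranked within their list, and across lists tag counts were set only against the lowest of the other lists and score orders were correlated.

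Peaks were merged at an overlap of 1 bp. The members, gene lists and tests were chosen with earlier results of these data known. Genes are those of a RefSeq table of GRCm38.p6, which has gene ends but no exons, so exon, intron and UTR positions were not analysed here. The promoter table names 27025 symbols.

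Named genes are the 15 with the most members, up to 4 per gene list, marker genes whatever their values, genes at the highest and lowest members by score, and promoters of highest score; Epor, Mpeg1, Il1a, Cxcl1, Cd38 and Xdh were chosen after their values were seen. Promoter sequences are those of listed genes, not the score order alone. A listed interferon symbol (1) was not in the gene table. Results of some listed genes are not reported here.

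The motifs searched on both strands were PU.1 (GAGGAAGT), the shorter ETS core (GGAAGT), AP-1 (TGANTCA), CRE (TGACGTCA), C/EBP (TTGCNNAA), RUNX (TGTGGTT), MAF (TGCTGA), the antioxidant element (TGACNNNGC), MiT (TCACNTG), an E-box (CACGTG) and another E-box (CACCTG), both of which can overlap the MiT motif, IRF (GAAANNGAA) and the related composite with PU.1 (GGAANNGAA), nuclear receptor core (AGGTCA) and its extension (AAAGGTCA), RBPJ (GTGGGAA), SMAD (CAGAC) and its palindrome (GTCTAGAC), KLF and SP (GGGCGG), KLF4 (GGGTGTGG), EGR (GTGGGCG, which can overlap the KLF and SP motif), the GATA factor motif (AGATAA), NFY (CCAAT), FOX (TGTTTAC), the CpG dinucleotide, and by name alone MEF2, LXR DR4, DR1, NF-kB, HNF1 and CTCF. CpG, SMAD and NFY matches were left in lower case in the printed stretches.

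Scripts ran in Python 3.11.15 (pandas 2.3.3, numpy 2.4.6, matplotlib 3.10.9, scipy 1.17.1). Merging, selection and gene assignment were tested on simulated lists, and every planted member was recovered. Alternatives are in the closing section.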

Additional observations from a re-analysis of the deposited data

How the results depend on the processing

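The member count was 1398 to 2775 under other overlaps, by centres, by distance to other lists, with equal-length lists and on autosomes and X. It was 324 when only the better-scored 50% of the F4/80-high lists counted as present, and 876 when that held for every list. The share near gene ends was 4.32% within 500 bp and 17.1% within 2500 bp, which follows from the distance, and 4.29% for members with no other-list centre within 1000 bp; by start sites, added after seeing the data, it was 7.96%. Genes with a member numbered 969 to 1314 under other gene assignments, distances to other lists and without JH584304, but 1783 with equal-length lists, 650 with the better-scored 50% of every list and 266 with that of the F4/80-high lists. Identity genes with a member were 5 to 7, except 2 with the better-scored 50% of the F4/80-high lists, a setting that leaves fewer regions. In that setting LXR and lipid genes with a member went from 10 to 6 of 18. Dead cell uptake genes went from 6 to 3 of 16 and scavenger and lectin genes from 7 to 1 of 17. The share of all genes went from 5.74% to 1.21%. Markers of recruited cells, at 0 genes as reported, held members at 1 of 12 with equal-length lists (8.14% of all genes) and 2 of 12 with the better-scored 50% of every list (2.97%). Median percentiles by tag count were 61.3, 51.2 and 27.2.

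No paired analysis was possible because each deposited list holds both libraries of its group and no result comes from a test. Leaving out a replicate was not run for the same reason, and the planned motif searches around region centres were not run because no genome sequence was used here. Depth per library is not given in the sources used here, so a missing peak does not show closed chromatin.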

Other observations

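Within 10 kb of a RefSeq microRNA gene were 27 members (1.42%, 0.981% to 2.06%), against 1.41% of the mirror set (1.14% to 1.75%) and 1.94% of all merged regions (1.85% to 2.02%), so members were not more frequent there. The gene assignment, made on protein-coding genes, does not name microRNA genes, and such a region can be counted at a coding gene too. The member nearest to one was 0.43 kb from Mir6769b, which had another at 1.07 kb. A member 1.69 kb from Mir26b, at a mean score percentile of 29.0, had a centre of another list 0.27 kb away. The members near Mir15b, Mirlet7e and Mir339, at 4.48, 3.49 and 1.62 kb, also had one within 1 kb, at 0.34, 0.35 and 0.92 kb. Members near Mir5129 and Mir6898 were 31.69 and 18.90 kb from other lists.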
